A study of Mus musculus with 7 samples.

Results

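The collagen genes of the mouse brain were followed across cell classes and ages in 7 droplet single-cell RNA libraries. Members were chosen by name: every gene whose symbol is Col, a number, a and a number, which gave 44 of the 31053 genes counted. Of these, 11 encode fibril-forming chains, 6 the basement membrane network, 3 short-chain networks, 6 beaded filaments, 9 fibril-associated chains, 4 membrane-spanning chains, 2 multiplexins and 3 other chains. The adult libraries were made at P60 from the cortex dorsal to the lateral ventricles (a block that holds grey matter, white matter and the ventricular-subventricular zone), from the grey matter alone, and from the white matter directly above the ventricles with its adjoining ventricular-subventricular zone. The early postnatal libraries were cortex at P2, P7 and P15 and a P7 dissection of the dorsal and lateral ventricular-subventricular zone, written here as P7 SVZ. The P7 SVZ mice were C57BL/6 and all others CD1, so that region and strain cannot be told apart there. All mice were untreated, and no transgene or deletion is named in the labels. The labels do not say that libraries came from separate animals, so no p-value here measures the spread between animals. Tests of age measure the spread between these libraries only. Tests between classes measure the spread of the class difference across these libraries only.

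Collagens are secreted or membrane-bound proteins whose chains wind into a triple helix of 3 polypeptides, in a mix that depends on the type. Types I and III form the fibrils of connective tissue, while type IV forms the sheet-like network of basement membranes around vessels and beneath the pial surface. Type IX sits on the surface of fibrils built from types II and XI and is best known from cartilage. In the brain, collagen is otherwise sparse in the extracellular space and is known mainly from vessels and meninges.

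Promoter sequences are shown for some members of the type IX, XI and XXVII group, whose RNA differed between adjacent steps of the oligodendrocyte lineage. Col9a1, Col11a2 and Col27a1 were higher in committed precursors, and Col11a1 was lower. Each line gives the 250 bases before a RefSeq start on build GRCm38.p6, at chr1:24177360-24177609, chr17:34038888-34039137, chr4:63215162-63215411 and chr3:114030290-114030539, all on the plus strand. Capitals mark the GC box GGGCGG or, read from the other strand, CCGCCC.
Col9a1: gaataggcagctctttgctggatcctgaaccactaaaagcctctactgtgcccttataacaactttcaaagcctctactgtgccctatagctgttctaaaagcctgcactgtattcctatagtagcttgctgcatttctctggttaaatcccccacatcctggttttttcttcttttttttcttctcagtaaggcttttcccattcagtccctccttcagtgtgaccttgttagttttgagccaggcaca
Col11a2: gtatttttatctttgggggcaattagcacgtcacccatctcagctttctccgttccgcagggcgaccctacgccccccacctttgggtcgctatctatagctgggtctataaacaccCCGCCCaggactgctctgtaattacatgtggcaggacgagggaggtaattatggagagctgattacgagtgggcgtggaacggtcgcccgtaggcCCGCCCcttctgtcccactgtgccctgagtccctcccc
Col27a1: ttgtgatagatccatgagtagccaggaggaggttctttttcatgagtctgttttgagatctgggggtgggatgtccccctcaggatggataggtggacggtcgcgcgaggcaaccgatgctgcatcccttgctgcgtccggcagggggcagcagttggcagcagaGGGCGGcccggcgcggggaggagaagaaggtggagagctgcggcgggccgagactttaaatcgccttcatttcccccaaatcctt
Col11a1: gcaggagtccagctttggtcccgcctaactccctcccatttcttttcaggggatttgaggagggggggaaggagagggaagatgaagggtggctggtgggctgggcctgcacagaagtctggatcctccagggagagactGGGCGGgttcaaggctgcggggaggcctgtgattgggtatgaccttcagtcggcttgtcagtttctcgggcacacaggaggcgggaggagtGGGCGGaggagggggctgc

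The search covered 5 short words. GGGCGG is the GC box. CCAAT is the CCAAT box, and TATAAA is the TATA box. ACAAAG is a core word bound by SOX factors, and ACAATG is a variant of it. Both strands were read, and no word lies inside another. In the windows shown, Col9a1 had no match to any of the 5 words and Col27a1 had 1 GC box. Col11a2 had 2 GC boxes and 1 TATAAA, and Col11a1 had 2 GC boxes and 1 CCAAT. A second Col9a1 promoter, at chr1:24194953-24195202, is not shown and had 1 CCAAT. RefSeq listed a promoter for 35 of the 44 members, with 38 promoters in all. GGGCGG was present in 57.9% of these 38 promoters, against 32.7% of all 32851 promoters. CCAAT was present in 34.2% of member promoters, against 33.8% of all, and TATAAA in 13.2%, against 12.4%. ACAAAG was present in 10.5% of member promoters, against 16.5% of all, and ACAATG in 2.63%, against 10.7%. These matches describe letters in the window only.

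After filtering, 20723 cells remained, which held 46293 collagen UMIs (unique molecular identifiers, each 1 captured RNA molecule), and 58.3% of the cells had at least 1. The libraries held 10074763 to 45668007 UMIs, with a median of 2791 to 9541 UMIs per kept cell, lowest in P60 cortex. Pairs of libraries shared 0 to 23 cell barcodes. In P7 SVZ, 2132 of the 3441 barcodes over the mitochondrial limit were lost. Cells were clustered without the collagens and named by marker genes that include no collagen, written as "-like", and 10 of 56 clusters (2185 cells) stayed unnamed. Levels are given in CPM, the UMIs of a gene per 1e6 UMIs of all cells of a class in a library. The assay reads the 3′ end, so each captured molecule counts once whatever its length, and CPM was not scaled by gene length. Whether capture was equal between genes was not tested.

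Col9a3, which encodes the alpha 3 chain of type IX collagen (chr2:180597790-180622189 on mm10, plus strand), alone held 16277 collagen UMIs. Col4a1 followed with 3885, Col4a2 with 2600, Col27a1 with 2443 and Col11a1 with 2161. Together, the 9 fibril-associated chains held 46.8% of collagen UMIs, the fibril-forming chains 24.9% and the basement membrane chains 17.3%. Each other family held between 0.480 and 3.35%. Fewer than 100 UMIs were counted for 9 members, of which Col10a1 had 7 and Col6a6 had 8. Over classes and libraries with at least 20 cells, which leaves out the fibroblast-like cells described further on, the highest mean level in a class was under 10 CPM for 17 members and at least 100 CPM for 6.

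**Figure D1:**
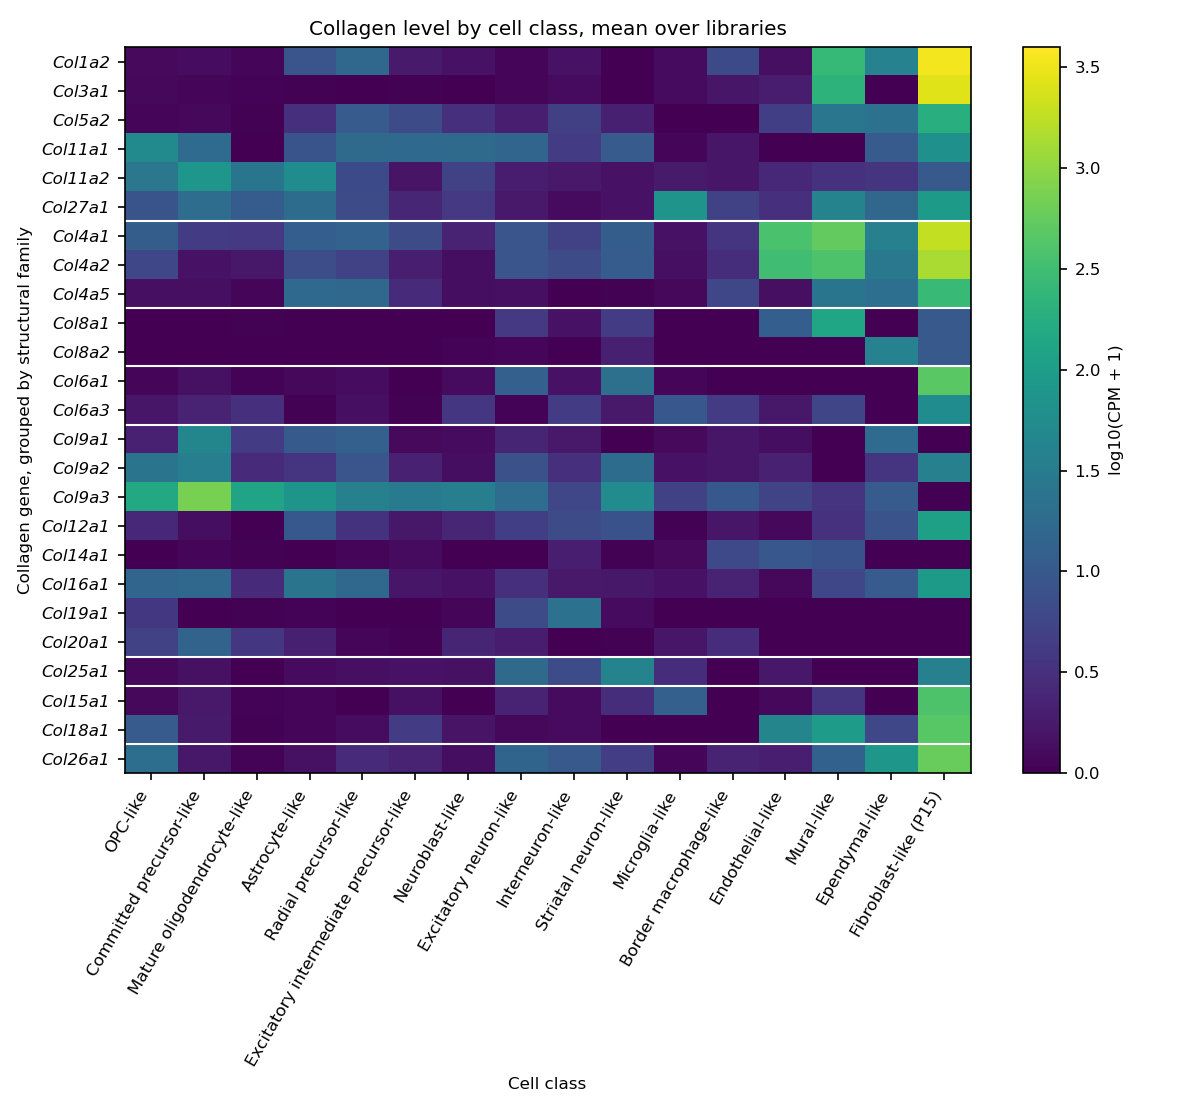
Heat map of the level of 25 collagens (rows) in each cell class (columns), as log10(CPM + 1) of the mean over libraries with at least 20 cells of the class; the 14 fibroblast-like cells of P15 cortex are added as 1 column. Col9a3 is the brightest row across the oligodendrocyte lineage, at 735 CPM in committed precursor-like cells, whereas Col4a1 and Col4a2 are brightest in the vessel classes.

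Each collagen was ranked by the class that held it at its highest mean level, again over libraries with at least 20 cells of the class, and the first 10 collagens were led by 4 classes. Committed precursor-like cells, named by markers of cells past the dividing precursor stage, held Col9a3 at 735 ± 246 CPM (SD, n = 5 libraries) and Col11a2 at 77.3 ± 16.1 CPM. They also carried myelin genes. The mature oligodendrocyte list summed to 10232 to 21295 CPM in them, against 324 to 1147 CPM in OPC (oligodendrocyte precursor cell)-like cells and 54661 to 111877 CPM in mature oligodendrocyte-like cells. Mural-like cells, the pericytes and smooth muscle of vessels, held Col4a1 at 550 ± 443 CPM, Col4a2 at 393 ± 383 CPM, Col1a2 at 260 ± 242 CPM, Col3a1 at 212 ± 263 CPM, Col8a1 at 129 ± 112 CPM and Col18a1 at 97.8 ± 106 CPM (n = 3 each). Microglia-like cells held Col27a1 at 73.0 ± 52.9 CPM (n = 7), and ependymal-like cells of P7 cortex held Col26a1 at 80.3 CPM (n = 1). The SDs of the mural-like levels are about as large as the means, and P15 cortex was far above the adult libraries.

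Col9a3 was detected at every step of the oligodendrocyte lineage and peaked in the middle. In oligodendrocyte precursor cell (OPC)-like cells its level was 214 CPM in P2 cortex, 199 in P7 cortex, 167 in P7 SVZ, 210 in P15 cortex, 75.8 in P60 cortex, 121 in P60 grey matter and 81.0 in P60 white matter. In committed precursor-like cells Col9a3 was 880 CPM in P7 cortex, 539 in P7 SVZ, 1077 in P15 cortex, 702 in P60 cortex and 479 in P60 white matter. Sums of 16 and 12 cells in P2 cortex and P60 grey matter gave 1589 and 648 CPM. In mature oligodendrocyte-like cells it was 353 CPM in P15 cortex, 15.7 in P60 cortex, 115 in P60 grey matter and 17.8 in P60 white matter. The committed precursor-like levels lay above every OPC-like level, and the mature levels were low in the P60 cortex and white matter libraries and intermediate at P15.

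Within libraries, 6 of 9 tested collagens were higher and 2 lower in committed precursor-like than in OPC-like cells (edgeR with the library as a block, 5 libraries, sums of 40 to 295 and 87 to 536 cells). Of all genes tested, 49.5% were called in this comparison, 22.8% higher and 26.6% lower. The median log2 difference of the 9 collagens was 1.95, against -0.03 over all genes. Col9a1, the type IX alpha 1 chain, showed the largest rise, at 44.2 ± 10.3 CPM in committed precursor-like cells and 1.21 ± 1.05 CPM in OPC-like cells (log2 difference 5.26 ± 0.30 SE, edgeR adjusted p = 4.44e-09). Its committed precursor-like levels, between 27.4 CPM in P7 SVZ and 55.3 CPM in P7 cortex, did not overlap the OPC-like levels of 0 to 2.79 CPM. Col9a3 rose by 2.44 ± 0.16 on the log2 scale, with 735 ± 246 CPM in committed precursor-like and 147 ± 64.3 CPM in OPC-like cells (edgeR adjusted p = 1.6e-08), and was higher in 5 of 5 libraries. Col9a2, the remaining type IX chain, averaged 34.1 ± 17.0 CPM in committed precursor-like and 25.1 ± 10.2 CPM in OPC-like cells, a log2 difference of 0.76 ± 0.17 (edgeR adjusted p = 0.00172). It was higher in 4 of 5 libraries, its levels overlapped, and without the library block the edgeR adjusted p was 0.189.

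Among chains outside type IX, Col11a2 (type XI alpha 2) was 77.3 CPM in committed precursor-like and 30.1 CPM in OPC-like cells, with a log2 difference of 1.95 ± 0.22 (edgeR adjusted p = 4.35e-06). Col20a1, a fibril-associated chain, was 12.9 against 3.23 CPM, with a log2 difference of 2.46 ± 0.35 (edgeR adjusted p = 4.69e-05). Col27a1, a fibril-forming chain known from cartilage, was 18.4 ± 21.0 CPM in committed precursor-like and 4.08 CPM in OPC-like cells, with a log2 difference of 2.16 ± 0.34 (edgeR adjusted p = 0.000109). Each of these 3 was higher in 5 of 5 libraries, although levels from different libraries overlapped. Col27a1 levels were 54.6 and 18.2 CPM in committed precursor-like cells of P60 cortex and P60 white matter, against 3.58, 7.43 and 7.90 CPM in those of the early libraries. Both falls were without overlap, as were 4 of the 9 collagens and 20.1% of all genes. Col26a1 averaged 0.733 CPM in committed precursor-like cells and 19.2 ± 4.88 CPM in OPC-like cells (log2 difference -3.93 ± 0.36, edgeR adjusted p = 5.21e-07). Col11a1, the type XI alpha 1 chain, averaged 17.2 ± 10.8 CPM in committed precursor-like cells and 53.4 ± 11.8 CPM in OPC-like cells (log2 difference -1.45 ± 0.19, edgeR adjusted p = 1.94e-05), so the 2 type XI chains moved in opposite directions. The ninth collagen tested, Col16a1, differed by 0.40 on the log2 scale and missed the threshold (edgeR adjusted p = 0.223).

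**Figure D2:**
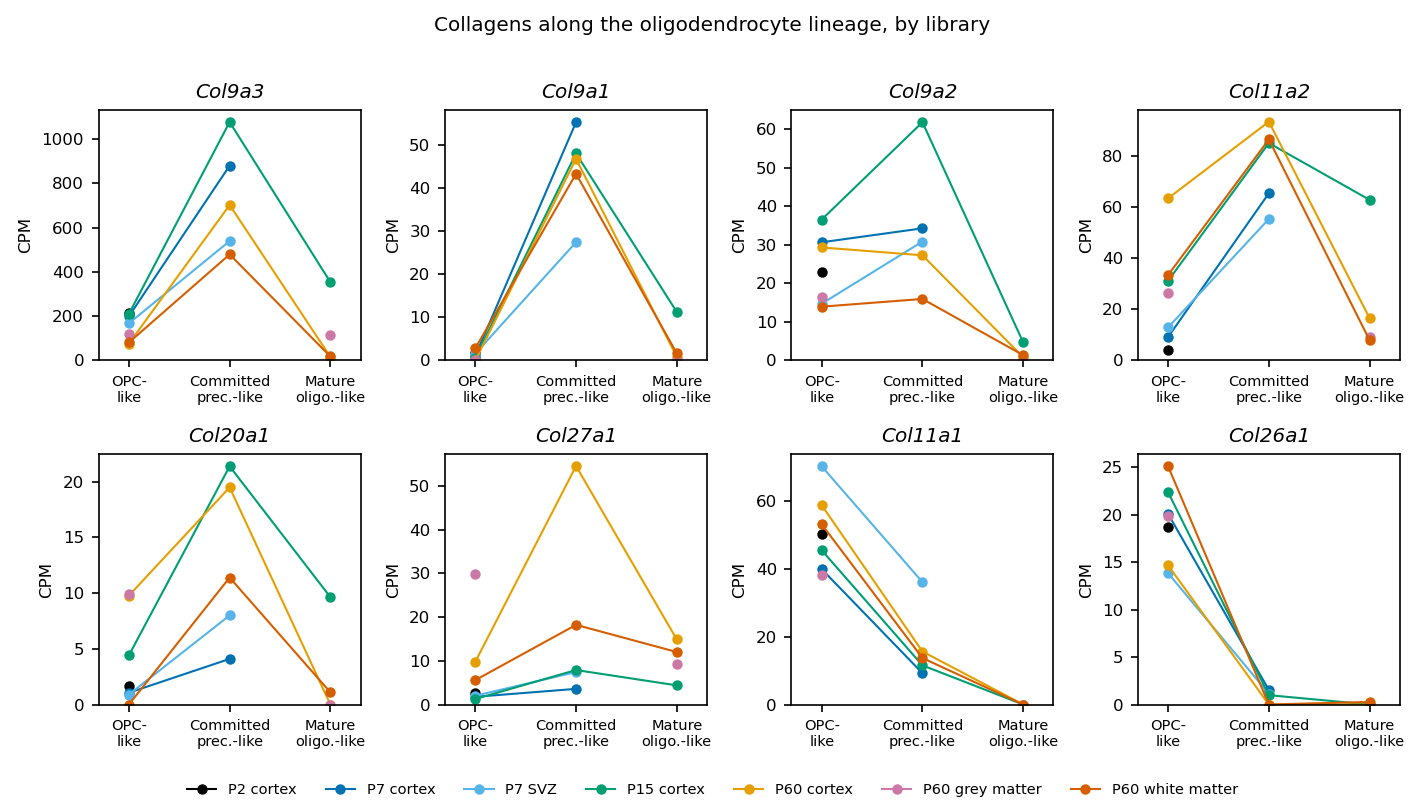
CPM of 8 collagens in OPC-like, committed precursor-like and mature oligodendrocyte-like cells, left to right in each panel, with 1 line per library. Col9a3, Col9a1, Col11a2 and Col20a1 peak in the middle, and Col11a1 and Col26a1 are highest in OPC-like cells.

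From committed precursor-like to mature oligodendrocyte-like cells, 5 of 8 tested collagens were lower and 0 higher, and each of the 8 had a lower level in 3 of 3 libraries that held both classes. The median log2 difference of the 8 was -2.68, against -0.02 over all genes, of which 19.3% were called, 8.8% lower. Col9a2 averaged 2.29 CPM in mature and 35.0 CPM in committed precursor-like cells (log2 difference -3.42 ± 0.39, edgeR adjusted p = 0.00352). Col9a1 averaged 4.57 CPM in mature and 46.1 CPM in committed precursor-like cells (log2 difference -2.99 ± 0.66, edgeR adjusted p = 0.0273). Col9a3 averaged 129 ± 194 CPM in mature and 753 ± 302 CPM in committed precursor-like cells (log2 difference -3.51 ± 0.82, edgeR adjusted p = 0.0335). All 3 type IX chains therefore fell. Col16a1, which like type IX belongs to the fibril-associated family, averaged 2.37 CPM in mature and 15.9 CPM in committed precursor-like cells (log2 difference -2.37 ± 0.52, edgeR adjusted p = 0.0271). Col11a1 had 0 UMIs in the mature cells of all 3 libraries and 13.6 ± 2.04 CPM in committed precursor-like cells (edgeR adjusted p = 0.0162). That mean was 53.1-fold above a floor of 3 UMIs over the whole mature group. In single libraries a floor of 3 UMIs was 0.438 CPM in P15 cortex, 2.48 in P60 cortex and 0.819 in P60 white matter, which gives lower bounds. Col11a2, Col20a1 and Col27a1 did not pass. The count of called collagens was 2 without P60 cortex and 3 without P60 white matter. Of the 5, only Col9a2 stayed under the threshold when each of the libraries was left out. Without P60 cortex the edgeR adjusted p was 0.114 for Col9a1, 0.167 for Col9a3, 0.0585 for Col11a1 and 0.125 for Col16a1. Without P60 white matter it was 0.107 for Col9a1 and 0.161 for Col9a3, and without the library block it was 0.221 for Col9a3.

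Mature oligodendrocyte-like cells were not of 1 kind with respect to Col9a3. The cluster with 99.4% of the adult mature cells, cluster 53, held 15.7 CPM in P60 cortex, 38.8 in P60 grey matter and 14.2 in P60 white matter. At P15, 105 cells of cluster 37 held Col9a3 at 845 CPM and 200 cells of cluster 40 at 136 CPM. Cluster 40 raised 11 of the 11 mature markers and cluster 37 only 7. Cluster 37 was named by a narrow margin. Its naming score (log2 rise per listed marker) was 2.29 for the mature list and 2.14 for the committed precursor list. The 115 CPM of P60 grey matter rested on 1 of its 23 cells, which lay outside cluster 53 and held 18 of the 25 Col9a3 UMIs. Adult and early mature cells thus fell in different clusters, and too few early libraries reached 20 cells for a test of stage.

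The share of cells with a Col9a3 UMI was compared after thinning each cell to 2000 UMIs. That share was 55.8 to 77.9% in committed precursor-like cells, 14.3 to 32.3% in OPC-like cells, 7.08 to 21.2% in astrocyte-like cells and 2.86 to 40.4% in mature oligodendrocyte-like cells across libraries. Unthinned, the ranges were 85.0 to 96.9%, 21.8 to 66.4%, 12.7 to 44.8% and 7.12 to 80.1% in the same order. Thinning left out 34 committed precursor-like, 66 OPC-like and 350 astrocyte-like cells. In classes taken to lack the gene, the thinned shares were 0.188 to 1.603% (microglia-like) and 0 to 2.31% (endothelial-like), and the shares in the lineage and in astrocyte-like cells lay above both. Median depth per library was 5892 to 16068 UMIs in committed precursor-like and 2465 to 10264 UMIs in microglia-like cells. A Col9a3 annotation limit applies: the last 2000 bases of Col9a3 overlap exons of Tcfl5 on the opposite strand, and whether reads were counted by strand is not given in the sources used here. Tcfl5 itself was at 0 to 8.04 CPM in OPC-like, 0 to 6.29 CPM in committed precursor-like and 0 to 1.70 CPM in astrocyte-like cells.

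Type IX collagen is built from 1 each of its alpha 1, alpha 2 and alpha 3 chains, but the RNAs were far from equal. Col9a3 exceeded Col9a2 by 17.4 to 25.6 times in committed precursor-like cells of 3 early libraries. In OPC-like cells of 6 libraries it did so by 2.58 to 11.4 times. In committed precursor-like cells of P60 cortex and P60 white matter, Col9a2 had 7 UMIs each, against 180 and 210 of Col9a3. No ratio was taken there. The ratio of Col9a3 to Col9a1 was 11.1 to 22.4 in committed precursor-like cells of 5 libraries. UMIs of all 3 chains were seen in the same cell in 71 of 684 committed precursor-like cells (10.4%), in 5 of 1884 OPC-like cells (0.265%) and in 2 of 3328 astrocyte-like cells. These counts were not thinned. Median depth was 11151, 6679 and 4348.5 UMIs per cell in the same order, and the part of depth in these counts was not tested. The ratio of Col11a2 to Col11a1 was 1.54 or more in committed precursor-like cells of 3 libraries and 0.185 to 1.08 in OPC-like cells of 6 libraries, without overlap.

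OPC-like cells were also set against astrocyte-like cells, the other glia of the same 6 libraries, and 5 of 11 tested collagens were higher and 3 lower. Of all genes, 47.2% were called, 23.7% higher and 23.5% lower, and the median log2 difference was -0.54 for the collagens and 0.01 for all genes. Col26a1 averaged 19.3 CPM in OPC-like and 0.446 CPM in astrocyte-like cells (log2 difference 4.59, edgeR adjusted p = 2.38e-05). Its levels lay between 13.8 and 25.1 CPM in OPC-like cells of all 7 libraries, against at most 1.70 CPM in astrocyte-like cells. Col18a1, whose product carries the endostatin fragment, averaged 9.61 and 0.148 CPM (log2 difference 4.28, edgeR adjusted p = 0.0001). Col9a2 averaged 23.6 and 2.48 CPM (2.59, edgeR adjusted p = 6.87e-05), and Col11a1 50.9 and 7.54 CPM (2.32, edgeR adjusted p = 0.000139). None of these 4 overlapped between the classes, where 5 of the 11 collagens and 22.2% of all genes did not overlap. Col9a3 was higher by less, at 142 ± 58.5 CPM in OPC-like and 72.9 ± 26.6 CPM in astrocyte-like cells (log2 difference 0.67 ± 0.26, edgeR adjusted p = 0.0486). It was higher in 6 of 6 libraries, yet the adjusted p was 0.109 without the library block, 0.0546 with doublet calls kept, and 0.166, 0.103 and 0.0893 without P7 cortex, P7 SVZ and P15 cortex. On the other side, Col4a5, a basement membrane chain, averaged 0.489 CPM in OPC-like and 16.2 CPM in astrocyte-like cells without overlap (log2 difference -4.78, edgeR adjusted p = 1.72e-06). Col27a1 averaged 8.37 and 17.9 CPM (-2.27, edgeR adjusted p = 0.000946) and Col16a1 14.4 and 23.3 CPM (-1.17, edgeR adjusted p = 0.0232). Col16a1 was lower in 5 of 6 libraries and its adjusted p was 0.0534 without P15 cortex. The number of called collagens was 5 without P7 SVZ or without P15 cortex.

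Age was tested as adult against early postnatal libraries in 6 classes. In OPC-like cells 1 of 8 tested collagens passed, and it was Col9a3, at 92.5 ± 24.7 CPM in adult libraries (n = 3) and 198 ± 21.1 CPM in early libraries (n = 4). The log2 difference was -1.28 ± 0.24 (edgeR adjusted p = 0.0120), and the adult range of 75.8 to 121 CPM lay below the early range of 167 to 214 CPM, a lack of overlap shared by 23.1% of all genes. Of all genes tested, 6.54% were called in either direction, 3.13% higher and 3.41% lower, and the median log2 difference of the 8 collagens was -0.19, against 0.00 over all genes. The adjusted p was 0.0683 when the P60 cortex library was left out, 0.0522 when grey matter was, and 0.0504 when white matter was; without P15 cortex, 2 collagens were called. Col11a2 had the opposite sign, with a log2 difference of 1.26, but did not pass (edgeR adjusted p = 0.159). Its levels were 63.6 CPM in P60 cortex, 26.5 in P60 grey matter and 33.5 in P60 white matter, against 4.25, 9.17, 12.9 and 31.2 CPM in P2 cortex, P7 cortex, P7 SVZ and P15 cortex.

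Adult and early OPC-like cells differed in more than age. Cluster 25 held 97.8% of adult OPC-like cells and 19.3% of early ones, and cluster 47, all from P7 SVZ, held 29.1% of early ones. Within cluster 25, Col9a3 was at 79.5 CPM in P60 cortex, 121 in P60 grey matter and 79.6 in P60 white matter, against 209 in P7 cortex and 184 in P15 cortex. The order was therefore the same inside that cluster. Median UMIs per OPC-like cell were 3716 to 5348 in adult and 5625 to 7960 in early libraries. The summed level of the committed precursor marker list in OPC-like cells was 2427 to 2538 CPM in adult and 1065 to 2468 CPM in early libraries, and that of the microglia list 145 to 1248 and 19.5 to 123 CPM. The part of these differences in the Col9a3 result was not tested.

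**Figure D3:**
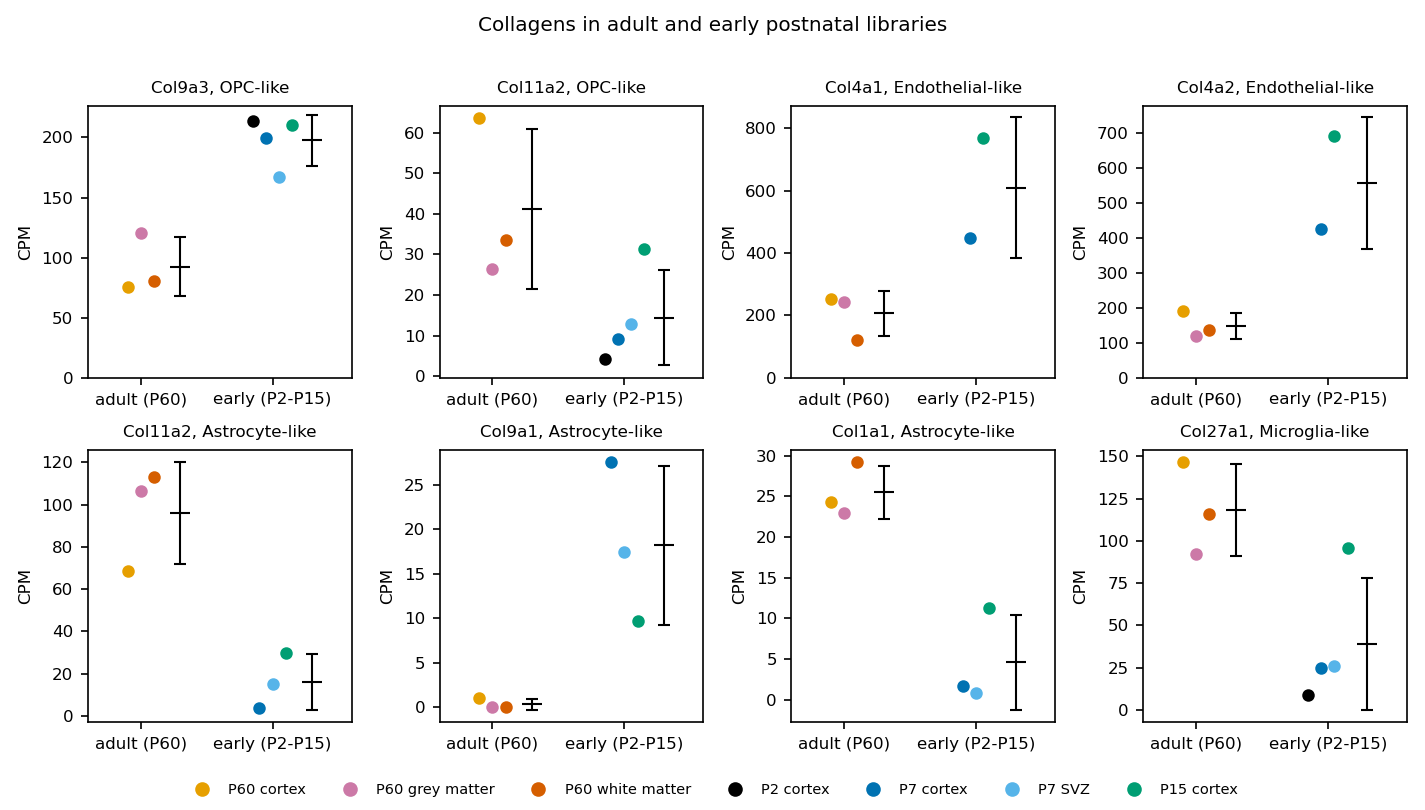
Levels in CPM of 8 collagen and class pairs in adult libraries (left in each panel) and early postnatal libraries (right), with 1 point per library and the mean ± SD. Col9a3 in OPC-like, Col4a1 and Col4a2 in endothelial-like and Col9a1 in astrocyte-like cells separate the ages without overlap, with the adult libraries lower. Col11a2 and Col1a1 in astrocyte-like cells also do, with the adult libraries higher. No collagen was called with age in astrocyte-like cells. Of all genes, 23.1% (OPC-like), 39.5% (endothelial-like) and 26.1% (astrocyte-like) did not overlap.

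In astrocyte-like cells 0 of 13 collagens passed with edgeR, where 0.00941% of all genes were called; 6 had an unadjusted p under 0.05, the DESeq2 alternative called 4, and edgeR called 5 when P15 cortex was left out. Levels did not overlap between the ages for 6 of the 13, against 26.1% of all genes. At P60, Col9a1 was 1.07 CPM in cortex and 0 in both grey and white matter, against 27.6, 17.4 and 9.73 CPM in P7 cortex, P7 SVZ and P15 cortex (log2 difference -4.43, edgeR adjusted p = 0.0934). Col11a2 was 68.6, 106 and 113 CPM in the adult libraries, against 3.72, 14.9 and 29.97 CPM in the early ones (log2 difference 2.50, edgeR adjusted p = 0.130). The 2 genes differ in direction, with Col9a1 near 0 in the adult and Col11a2 lowest in P7 cortex. The type I chains also differed in sign. Col1a1 was 24.3, 23.0 and 29.2 CPM in adult and 1.70, 0.851 and 11.3 CPM in early astrocyte-like cells (log2 difference 2.39, edgeR adjusted p = 0.174). Col1a2 was 2.14, 2.87 and 0 CPM in adult and 13.004, 19.1 and 10.5 CPM in early ones (log2 difference -2.85). Fibroblast markers summed to 19.3 to 51.7 CPM in adult astrocyte-like cells, with 2 to 3 of 9 markers seen and Dcn and Lum at 0, against 37.6 to 100 CPM in early ones, with 5 to 8 of 9 seen. Cluster 52 held 99.9% of adult and 11.7% of early astrocyte-like cells. Median depth was 2325 to 2584 UMIs in adult and 5100 to 8472 UMIs in early libraries, and the OPC list summed to 1642 to 1865 and 1715 to 5984 CPM. The part of these differences in the collagen levels was not tested.

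The age difference was compared between OPC-like and astrocyte-like cells in 1 model, an analysis added after seeing the data. None of 18 collagens passed in edgeR, where 0.518% of all genes did, and 4 had an unadjusted p under 0.05; no other tool was run, and 3 passed without P15 cortex. For Col9a3 the adult minus early difference was lower in OPC-like than in astrocyte-like cells by 1.10 ± 0.38 on the log2 scale, with an edgeR adjusted p of 0.210. For Col27a1 the gap between the classes was 2.28 ± 0.62 (edgeR adjusted p = 0.116). The fall of Col9a3 with age was thus not shown to differ between the 2 classes.

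Type IV collagen was the main collagen of vessels. Col4a1 and Col4a2 encode the chains of the common network and lie head to head on chromosome 8, with starts at 11312826 and 11312805 on mm10. Mural-like cells held 28.8% of all Col4a1 UMIs and endothelial-like cells 31.6%, and for Col4a2 the mural-like share was 23.0% and the endothelial-like share 39.9%. Col4a1 was 253, 244 and 122 CPM in adult endothelial-like cells (cortex, then grey, then white matter), against 450 and 770 CPM in P7 and P15 cortex. Col4a2 was 191, 120 and 137 CPM in the same adult libraries, against 424 and 691 CPM in the early ones. Each adult level lay below both early levels, and 39.5% of all genes likewise did not overlap between the ages.

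Of the 3 collagens tested in endothelial-like cells, Col4a1 and Col4a2 were lower in adult libraries. Col4a1 averaged 206 ± 73.2 CPM in adult (n = 3) and 610 ± 226 CPM in early libraries (n = 2), with a log2 difference of -1.53 ± 0.37 (edgeR adjusted p = 0.0270). Col4a2 averaged 149 ± 37.2 CPM in adult and 558 ± 188 CPM in early libraries, with a log2 difference of -1.91 ± 0.32 (edgeR adjusted p = 0.00532). Col18a1, a basement membrane component, had a log2 difference of -0.26 and was not called. Of all genes, 9.91% were called, 5.34% higher and 4.57% lower, and the median log2 difference was -1.53 for the collagens and -0.00 for all genes. Without P60 white matter, which is also what a minimum of 50 cells removes, the adjusted p was 0.107 for Col4a1 and 0.0520 for Col4a2. For Col4a1 it was 0.0581 without P15 cortex, 0.0521 without grey matter and 0.0942 without P60 cortex.

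All endothelial-like cells came from 1 cluster. Their median depth was 2017 to 3011 UMIs in adult and 7745 to 10153 UMIs in early libraries. The summed mural marker list was 66.8 to 859 CPM in adult and 37.6 to 46.2 CPM in early libraries. Of its 15 markers, 6 to 12 were seen in adult and 6 to 9 in early sums. The part of depth and of the mural list in the result was not tested.

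Col1a2, the type I alpha 2 chain, separated mural-like from endothelial-like cells. It was 539 CPM in P15 cortex, 103 in P60 cortex and 140 in P60 white matter in mural-like cells, against 0 UMIs in endothelial-like cells of the same 3 libraries. Its mean mural-like level was 78.1-fold above a floor of 3 UMIs over the whole endothelial-like group (edgeR adjusted p = 4.83e-05). In single libraries a floor of 3 UMIs was 5.37 CPM in P15 cortex, 14.3 in P60 cortex and 22.8 in P60 white matter, which gives lower bounds at P60. Col1a2 was the 1 collagen called of 3 tested, where 32.9% of all genes were called (15.2% higher). Col4a1 averaged 550 ± 443 CPM in mural-like and 381 ± 343 CPM in endothelial-like cells (log2 difference 0.61, edgeR adjusted p = 0.124), and Col4a2 393 and 340 CPM (0.17, edgeR adjusted p = 0.676). Col4a1 was higher in mural-like cells in 3 of 3 libraries (edgeR unadjusted p = 0.0498) and Col4a2 in 2 of 3. Neither type IV chain was called. Without P60 white matter, 3 collagens were called. The ratio of Col4a1 to Col4a2 was 1.27 to 1.71 in mural-like and 0.889 to 2.03 in endothelial-like cells.

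Other mural collagens were described without a test. Col3a1, the type III chain, was 515 CPM in P15 cortex, 75.3 in P60 cortex and 46.7 in P60 white matter. Col8a1, a short-chain network collagen of vessel walls, was 258, 75.3 and 53.4 CPM in the same order, and Col18a1 was 219, 54.8 and 20.02 CPM. Sums of 19 mural-like cells in each P7 library gave Col4a1 levels of 1550 CPM in P7 cortex and 3521 CPM in P7 SVZ. In each of these genes P15 cortex exceeded both P60 libraries with at least 20 cells. The fibroblast marker list summed to 1588 to 5886 CPM in mural-like cells. Of its 9 markers, 5 were seen in P15 cortex and 6 to 7 in P60 cortex and white matter. The part of this list in the levels of Col1a2 and Col3a1 was not tested.

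**Figure D4:**
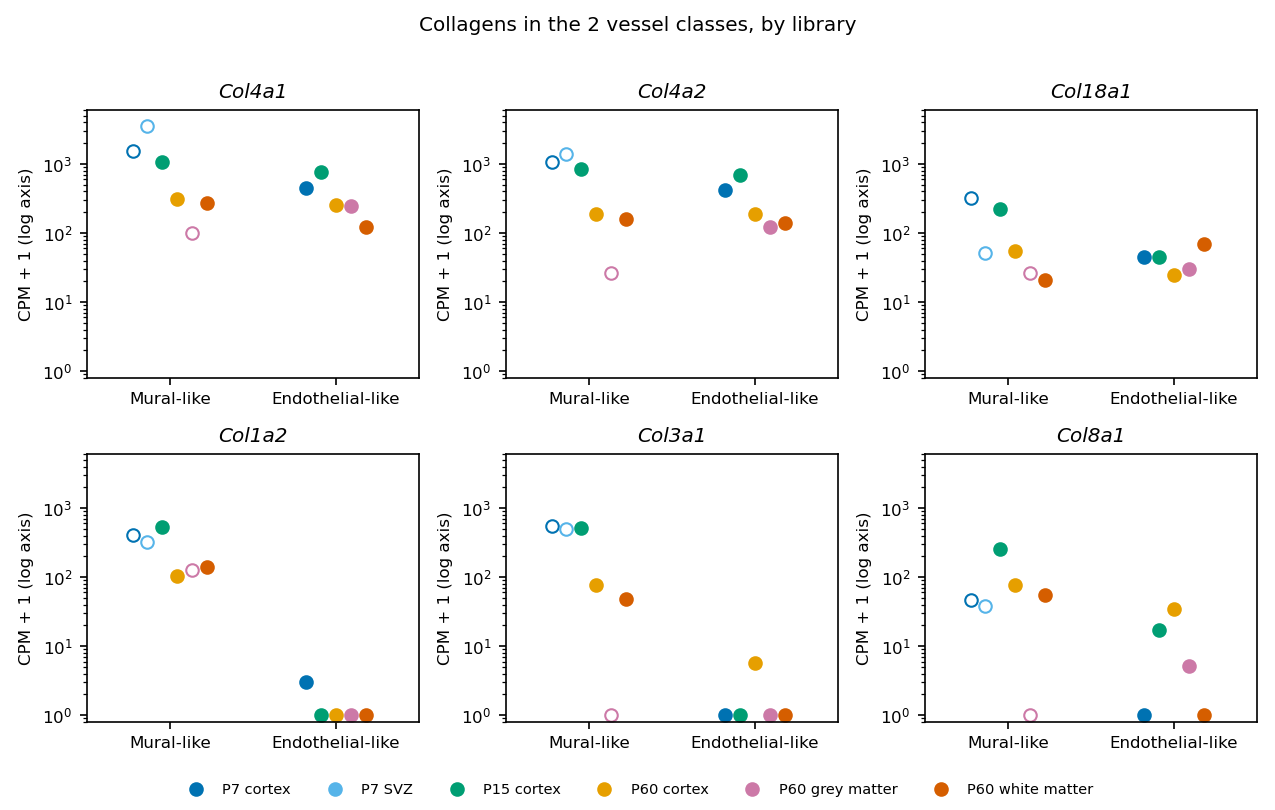
CPM + 1 (log axis) of vessel collagens by library in mural-like cells (left) and endothelial-like cells (right); open circles are sums of 10 to 19 cells. Col1a2 and Col3a1 stand high in mural-like and near 0 in endothelial-like cells, whereas Col4a1 and Col4a2 are high in both.

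The fibroblast-like cluster held 34 cells, too few in any library for a test, yet carried 71.4% of all Col1a1 UMIs, 68.6% of Col3a1, 54.4% of Col1a2 and 80.6% of Col13a1. Col1a1, Col2a1 and Col13a1 are named here after their values were seen. In the 14 cells of P15 cortex, Col1a2 was 3487 CPM, Col1a1 3159, Col3a1 2629, Col4a1 1872 and Col4a2 1369. Col26a1 followed at 575 CPM, Col6a1 at 484, Col18a1 at 466, Col15a1 at 393 and Col13a1 at 338. Fibrillar types I and III, vessel-type IV chains and beaded filament chains were thus all present in the same few cells. In the 14 cells of P7 cortex Col1a2 was 2688 CPM, Col3a1 1568 and Col1a1 1537.

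One cell of the P7 cortex cluster, with 22430 UMIs, differed from the rest. It held all 130 Col2a1 UMIs of the cluster, 251 of 252 Col9a1 UMIs, 122 of 143 Col9a2 UMIs, all 214 Col9a3 UMIs and all 33 Col11a2 UMIs. It also held 19 UMIs of Cnmd, which encodes chondromodulin, and none of the fibroblast markers Dcn, Lum and Slc6a13. It held 757 UMIs of types II, IX and XI, against 0 to 8 in the other 30 cells of P2, P7 and P15 cortex. Those 30 cells held 16 to 272 UMIs of types I and III, with a median of 59.5. Without that cell, P7 cortex levels were 5.90 CPM for Col9a1, against 1313 with it, and 0 for Col9a3 and Col2a1, against 1115 and 677. Col1a2 was 2277 CPM without it. Elsewhere in the cluster, the P7 SVZ cell and 1 of the 2 P60 cortex cells had 0 UMIs of types I and III. Both also had 0 UMIs of Dcn, Lum and Slc6a13.

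**Figure D5:**
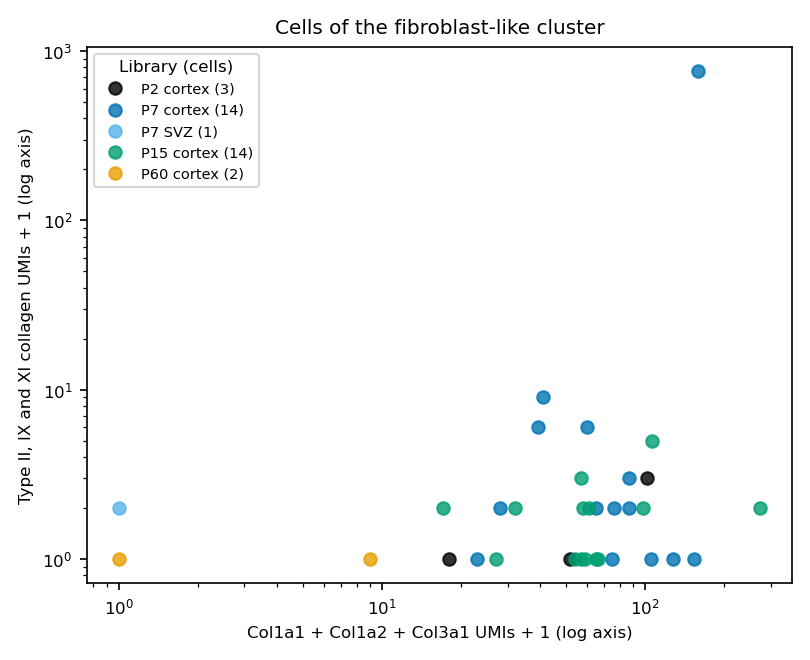
UMIs of type II, IX and XI collagens against UMIs of type I and III collagens in each of the 34 cells of the fibroblast-like cluster. A single P7 cortex cell lies at 757 UMIs of types II, IX and XI, and the other early cortex cells at 0 to 8.

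Microglia-like cells, the resident immune cells of the brain, held 68.0% of all Col27a1 UMIs, 58.9% of Col6a3 and 57.3% of Col15a1. Col27a1 was 8.93 CPM in P2 cortex, 25.0 in P7 cortex, 26.1 in P7 SVZ, 96.0 in P15 cortex, 146 in P60 cortex, 92.3 in P60 grey matter and 116 in P60 white matter. P15 cortex therefore sat with the adult libraries and above the earlier ones. Cluster 33 held 41.6% and cluster 50 32.8% of adult microglia-like cells, whereas cluster 5 held 49.2% and cluster 38 30.1% of early ones, and their part in the levels was not tested. Col6a3, a beaded filament chain, at P60 was 11.99 CPM in white matter, 14.3 in grey matter and 23.2 in cortex, against 0 to 6.73 CPM in early libraries. Col15a1, a multiplexin of basement membranes, was 5.88 CPM in P7 SVZ and 14.3 CPM in P7 cortex. In P15 and P60 libraries it was between 14.8 and 17.1 CPM. It had 0 UMIs in the 25 microglia-like cells of P2 cortex, where a floor of 3 UMIs was 13.4 CPM.

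None of the 4 collagens tested with age in microglia-like cells passed in edgeR (0.0314% of all genes did, 0.0105% higher and 0.0209% lower). Unadjusted p was under 0.05 for 3 of them, and DESeq2 called 1; edgeR called 2 without P15 cortex. The log2 difference of adult over early was 2.46 for Col6a3 and -1.73 for Col9a3. Col27a1 averaged 118 ± 27.1 CPM in adult and 39.0 ± 38.8 CPM in early libraries (edgeR adjusted p = 0.315). Col9a3 was at 1.13 to 7.63 CPM in these cells, and 0.188 to 1.603% of them had a UMI after thinning, which is no more than the share in endothelial-like cells. For Col27a1, the thinned share of cells with a UMI was 1.61 to 5.41% in P2 and P7 libraries, 16.5% at P15 and 16.9 to 23.3% at P60. In endothelial-like cells, for comparison, the thinned share was at most 0.224%.

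In committed precursor-like cells 0 of 9 collagens passed the age test in edgeR, and 0% of all genes did. Col27a1, with a log2 difference of 2.32, and Col9a2, with -1.14, had an unadjusted p under 0.05, and DESeq2 called 0. In neuroblast-like cells 0 of 2 collagens passed in edgeR, where 0% of all genes passed, 0 had an unadjusted p under 0.05, and DESeq2 called 0. The remaining 10 classes, among them mural-like and mature oligodendrocyte-like cells, did not have enough libraries with 20 cells at both ages.

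Neuronal and ventricular classes showed low levels of several members. Striatal neuron-like cells held 58.5% of the UMIs of Col25a1, a membrane-spanning collagen of neurons, at 28.9 CPM in P2 cortex and 50.01 CPM in P7 SVZ. They also held 42.8% of Col6a1 UMIs, at 10.8 and 29.4 CPM in those libraries. The highest collagen of striatal neuron-like cells was nonetheless Col9a3, at a mean of 52.7 CPM (28.9 to 76.6 CPM, n = 2 libraries). In excitatory neuron-like cells Col25a1 was 0.666 CPM at P2, 0 at P7, 33.3 at P15 and 31.4 at P60, while Col9a3 was 32.5, 20.3, 18.9 and 2.14 CPM. These cells sat in different clusters, with 97.8% of those at P15 and all 144 at P60 in cluster 51, and those at P2 and P7 mostly in others. Interneuron-like cells of P2 cortex held Col19a1 at 21.3 CPM and 33.2% of all its UMIs were in this class. Ependymal-like cells, which line the ventricles, held Col26a1 at 80.3 CPM and Col8a2 and Col1a2 at 38.9 CPM each in the 38 cells of P7 cortex. Col8a2 had 34 of its 44 UMIs in this class. In neuroblast-like cells Col9a3 averaged 33.1 CPM and Col11a1 16.4 CPM, in radial precursor-like cells Col9a3 averaged 35.4, Col11a1 16.4 and Col1a2 15.6 CPM, and in excitatory intermediate precursor-like cells Col9a3 averaged 28.2, Col11a1 15.8 and Col5a2 5.93 CPM. Border macrophage-like cells held Col9a3 at 8.92, Col1a2 at 5.52 and Col14a1 at 5.18 CPM. The 19 members not among the 25 of the heat map held 4073 UMIs together, and their highest class level ran from 0.285 to 38.9 CPM, under 10 CPM for 14.

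Regions were compared with 1 library on each side, so no test was made and only exact counting intervals are given. A 2-fold ratio with at least 10 UMIs was the rule. Between P60 white matter and P60 grey matter, 0 of 8 collagens in OPC-like cells were higher and 1 was lower, where 19.8% of all genes passed the same rule. This was Col27a1, at 5.58 CPM in white matter and 29.8 CPM in grey matter (ratio 0.187, 95% interval 0.0211 to 0.783). The microglia marker list summed to 145 CPM in white and 1248 CPM in grey matter OPC-like cells, and its part in the Col27a1 ratio was not tested. In endothelial-like cells Col4a1 was 122 CPM in white and 244 CPM in grey matter (ratio 0.4996, 0.268 to 0.880), and 1 of 3 collagens was higher and 1 lower, against 22.9% of genes. The mural list summed to 98.9 CPM in white and 859 CPM in grey matter endothelial-like cells, and its part in the Col4a1 ratio was not tested. In astrocyte-like cells 1 of 5 was lower (20.4% of genes), and in microglia-like cells 2 of 7 were higher and 1 lower (27.8%). In mature oligodendrocyte-like cells 1 of 4 was higher and 1 lower (33.5%). The lower one was Col9a3, with the single grey matter cell described above. The higher one, Col16a1, had 10 UMIs in white and 0 in grey matter, where a floor of 3 UMIs was 13.8 CPM. Except for Col9a3 in mature cells, the 95% intervals in these 3 classes included 1. So did that of the collagen higher in endothelial-like cells.

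Between P7 SVZ and P7 cortex, region and strain differed together, and so did the clusters: 96.7% of astrocyte-like cells of P7 SVZ were in cluster 41, against clusters 17 and 36 for P7 cortex, and the radial precursor-like cells likewise shared no main cluster. The part of this in the ratios was not tested. In astrocyte-like cells 5 of 20 collagens were higher and 2 lower, where 28.5% of all genes passed. Col12a1, a fibril-associated chain, was 51.9 CPM in P7 SVZ and 1.24 CPM in P7 cortex (ratio 41.9, 95% interval 20.6 to 99.2). It was at 0 to 0.263 CPM in astrocyte-like cells of the 4 later libraries, so P7 SVZ stood alone. Col4a5 was 45.1 and 15.8 CPM (ratio 2.86, 2.15 to 3.78) and Col16a1 48.1 and 19.8 CPM (ratio 2.43, 1.87 to 3.15). In radial precursor-like cells 7 of 17 were higher and 1 lower (29.3% of genes), with Col4a4 at 25.6 and 2.33 CPM (ratio 10.96, 4.17 to 40.9), Col4a5 at 37.5 and 7.58 CPM and Col1a2 at 27.1 and 8.17 CPM. Col4a5 was thus higher in P7 SVZ in both astrocyte-like and radial precursor-like cells.

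In the oligodendrocyte lineage, 85.1% of OPC-like cells of P7 SVZ were in cluster 47, which held none of P7 cortex. Of committed precursor-like cells, 145 of 147 in P7 SVZ were in cluster 42, whereas 61.4% and 37.0% of those in P7 cortex were in clusters 26 and 30, and the mature oligodendrocyte list summed to 10232 and 18130 CPM. The part of these differences in the ratios was not tested. In OPC-like cells 4 of 18 collagens were higher and 3 lower (20.4% of genes), with Col4a1 at 17.6 and 6.70 CPM (ratio 2.63, 1.58 to 4.60) and Col9a2 at 14.7 and 30.7 CPM (ratio 0.480, 0.343 to 0.669). In committed precursor-like cells 3 of 11 were higher and 3 lower (21.1% of genes). Col11a1 was 36.0 and 9.22 CPM there (ratio 3.91, 2.28 to 7.01) and Col16a1 4.002 and 26.6 CPM (ratio 0.150, 0.0576 to 0.332). Col16a1 was therefore lower in P7 SVZ in the lineage, whereas in astrocyte-like cells it was higher. In neuroblast-like cells 7 of 11 were higher and 1 lower (32.4%), and in microglia-like cells 0 of 3 were higher and 1 lower (25.9%).

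The genes that fold, cross-link, bind and degrade collagen were followed in 4 lists of 32 assembly, 12 receptor, 12 turnover and 16 basement membrane genes. In adult against early endothelial-like cells, 7 of 9 tested basement membrane partners were lower, as were Col4a1 and Col4a2 (4.57% of all genes were lower), and the list's median log2 difference was -1.65, against -0.00 over all genes. Nid1, a nidogen that links type IV collagen to laminin, was 13.8 ± 3.71 CPM in adult and 174 ± 8.03 CPM in early libraries (edgeR adjusted p = 0.000779). Nid2 was 9.85 and 131 CPM (edgeR adjusted p = 0.00474), the laminin gene Lamb1 1.38 and 84.4 CPM (edgeR adjusted p = 0.00411) and Sparc, a collagen-binding protein, 2624 and 7498 CPM (edgeR adjusted p = 0.0085). Of 8 assembly genes, 2 were lower: Serpinh1, the collagen chaperone, at 310 ± 70.8 and 1068 ± 209 CPM (edgeR adjusted p = 0.00696), and the lysyl hydroxylase Plod1 at 62.6 and 191 CPM (edgeR adjusted p = 0.0373). Adgrg1, a receptor of type III collagen, was higher (88.1 and 29.3 CPM, edgeR adjusted p = 0.0275), as was Timp3, an inhibitor of matrix proteases (684 and 144 CPM, edgeR adjusted p = 0.0381). In place of 11 list genes, 4 were called when P60 white matter or P60 cortex was left out, and 5 when grey matter was.

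In OPC-like cells the list genes called with age were all higher in the adult, opposite in sign to Col9a3. They were 2 of 19 assembly genes, 1 of 3 receptors, 2 of 7 turnover genes and 0 of 3 basement membrane partners, against 3.13% of all genes higher and 6.54% called. The prolyl hydroxylase subunit P4ha1 was 96.1 ± 32.3 CPM in adult and 37.9 ± 8.31 CPM in early libraries (log2 difference 1.16, edgeR adjusted p = 0.0254), and the prolyl isomerase Fkbp14 40.0 and 9.52 CPM (1.88, edgeR adjusted p = 0.0254). Timp3 was 162 and 74.0 CPM (0.93, edgeR adjusted p = 0.0254), the protease Mmp2 60.6 and 16.8 CPM (1.59, edgeR adjusted p = 0.0348) and Adgrg1 124 and 58.8 CPM (0.88, edgeR adjusted p = 0.0489). The 5 calls fell to 0 without P2 cortex, P60 cortex or P60 grey matter, to 1 without P7 cortex, to 2 without P60 white matter and to 3 without P7 SVZ. With all libraries, no list gene was called with age by edgeR in the other 4 classes tested.

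Along the lineage, the lists moved in both directions. From OPC-like to committed precursor-like cells, 5 of 19 assembly genes were higher and 5 lower, and 2 of 7 turnover genes were higher and 4 lower, where 22.8% of all genes were higher and 26.6% lower. Plod2, a lysyl hydroxylase, was 57.1 ± 11.7 CPM in committed precursor-like and 19.1 ± 6.53 CPM in OPC-like cells (edgeR adjusted p = 4.08e-07), whereas the membrane protease Mmp15 was 8.996 and 336 CPM (edgeR adjusted p = 3.96e-11) and Mmp16 20.1 and 177 CPM (edgeR adjusted p = 2.51e-08). From committed precursor-like to mature oligodendrocyte-like cells, Ddr1, a collagen receptor, was 239 ± 97.8 CPM in mature and 40.4 ± 2.92 CPM in committed precursor-like cells (edgeR adjusted p = 0.00285). Ctsk, a collagen-degrading cathepsin, was 114 and 3.38 CPM (edgeR adjusted p = 0.0019), and the protease inhibitor Timp4 9.66 and 498 CPM (edgeR adjusted p = 0.00813). In OPC-like against astrocyte-like cells, 2 of 24 assembly genes were higher and 11 lower (23.7% and 23.5% of all genes), among them the prolyl hydroxylase subunits P4ha3 (0.155 and 31.3 CPM, edgeR adjusted p = 1.05e-07) and P4ha2 (0.424 and 16.5 CPM, edgeR adjusted p = 1.69e-06). In mural-like against endothelial-like cells, both tested receptors were higher, Itga1 at 674 and 208 CPM (edgeR adjusted p = 0.00209) and Itgb1 at 622 and 238 CPM (edgeR adjusted p = 0.00188), the subunits of a collagen-binding integrin, as was Pcolce, an enhancer of procollagen processing, at 235 and 2.54 CPM (edgeR adjusted p = 3.34e-05).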

How the data were processed

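Droplet 3′ single-cell libraries were deposited by the authors as raw UMI counts per gene and barcode. Per the submitters' processing notes, Cell Ranger 3 produced them on mm10. Neither the annotation release nor the use of strand is given there. Members matched GENCODE M21 by gene identifier (44 of 44), which gave positions on mm10. Barcodes with under 500 genes or over 10% mitochondrial UMIs, and 279 doublet calls, were left out. Cells were clustered in scanpy 1.11.5 without the collagens (2000 variable genes, 30 principal components, Leiden resolution 1.5). A cluster took a class name from 3 or more of its markers, each raised by 2-fold or more, and stayed unnamed where its leading genes held more markers of another class (5 clusters), where its UMI count was low with no own marker among them (3), or with under 3 markers (2). Counts were summed per class and library with at least 20 cells and tested in edgeR 4.0.16 (TMM, filterByExpr, quasi-likelihood test, Benjamini-Hochberg adjustment over all genes at 0.05), with the library as a block for pairs of classes. DESeq2 1.42.0 was an alternative. The scripts were tested on simulated data. Single-library ratios carry exact conditional 95% intervals, and intervals and the 3-count floor cover counting error only. The members, marker and pathway lists and tests were chosen with earlier results of these data known. Named are collagens past a threshold, the 10 highest class levels, the 3 highest in each class, and up to 4 called genes per pathway list and comparison. Not every such pathway gene is printed.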

Additional observations from a re-analysis of the deposited data

Results flagged for a closer look

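No early group of 4 libraries had a stray library among the 14 groups examined by Dixon's test. Clusters left unnamed, which entered no comparison by class, held a large share of the UMIs of 4 collagens. For Col23a1, a membrane-spanning chain, 50.5% of its 730 UMIs (369) were in such clusters. Cluster 24, of which 85.2% came from P7 SVZ, held 272 of them, at 39.3 CPM. For Col5a1, a minor fibril-forming chain, the share was 39.1% (95 of 243 UMIs). For the basement membrane chain Col4a4 it was 37.6% (185 of 492 UMIs), with 31.1 and 41.3 CPM in clusters 2 and 3. For Col22a1, a fibril-associated chain, it was 36.6% (52 of 142 UMIs).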

How the results depend on the processing

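No paired analysis was possible because the labels give no replicate numbers; in its place the library was the block between classes. Without that block, the edgeR adjusted p was 0.189 for Col9a2 (committed precursor-like over OPC-like), 0.221 for Col9a3 (mature over committed precursor-like) and 0.109 for Col9a3 (OPC-like over astrocyte-like). No direction reversed under any alternative run, and 24 values of single collagens lost their call.

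Some counts of called collagens moved by over 1.5 times when 1 library was left out, as given below. Others moved without the filter on low counts, where more genes are tested. With age they were then 4 in OPC-like (1 with the filter), 1 in committed precursor-like (0), 5 in astrocyte-like (0) and 4 in endothelial-like cells (2). Between classes they were 17 for committed precursor-like over OPC-like (8), 9 for mature over committed precursor-like (5), 19 for OPC-like over astrocyte-like (8) and 5 for mural-like over endothelial-like cells (1). Of the list genes, 1 in committed precursor-like, 5 in astrocyte-like, 1 in microglia-like and 17 in endothelial-like cells (11) were then called with age. DESeq2 called 4 collagens in astrocyte-like and 1 in microglia-like cells with age, and 6 and 1 list genes. A 20% mitochondrial limit gave 1 collagen in astrocyte-like cells. Sums of at least 50 cells gave 0 collagens and 4 list genes in endothelial-like cells, and could not be run for committed precursor-like cells. With doublet calls kept, 5 collagens were called between mural-like and endothelial-like cells. With the 50 most abundant genes left out of the totals, 1 collagen passed 2-fold between white and grey matter in endothelial-like cells (2 before).

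With 1 library left out, collagens called ranged from 6 to 11 for committed precursor-like over OPC-like, 2 to 4 for mature over committed precursor-like, 1 to 3 for mural-like over endothelial-like and 5 to 8 for OPC-like over astrocyte-like cells. With age they ranged from 0 to 2 in OPC-like, 0 to 2 in endothelial-like, 0 to 5 in astrocyte-like, 0 to 2 in microglia-like and 0 to 0 in committed precursor-like and neuroblast-like cells, and from 0 to 3 for the difference between OPC-like and astrocyte-like cells. List genes ranged from 0 to 6 in OPC-like, 4 to 12 in endothelial-like, 0 to 10 in astrocyte-like, 0 to 5 in microglia-like, 0 to 1 in committed precursor-like and 0 to 0 in neuroblast-like cells. The cause of these changes was not tested beyond the fewer samples and other gene sets that the alternatives use. Leaving out the fibroblast-like cell and the model across classes were chosen after seeing the data.

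Few cells limit the vessel classes, with endothelial-like sums of 45 to 94 cells and mural-like sums of 20 to 64. Median depth in endothelial-like cells was 2017 to 3011 UMIs in adult and 7745 to 10153 UMIs in early libraries. Of 44 collagens, 2 to 13 passed the filter in an age test and 3 to 11 between classes, so the rest have no test.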
